A study of Mus musculus with 9 samples.

Results

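The genes described here encode the proteins of the cytosolic ribosome. They were chosen as the protein-coding mouse genes whose symbols start with Rpl or Rps followed by a digit, together with Rplp0, Rplp1, Rplp2, Rpsa and Fau, without S6 kinases and pseudogenes. Of 55487 genes in the count files 87 met this rule. They comprised 46 genes for proteins of the large subunit, 32 genes for proteins of the small subunit, 8 paralogs of these genes and Rps19bp1, which the letters of the rule catch although its product binds a ribosomal protein and is not part of the ribosome. The filter on low counts kept 84 of the 87 genes, and 14312 genes in all. Rack1, 1 of 2 tested genes that do encode a protein of the ribosome but fall outside the rule, is given separately.

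RNA was taken from unstimulated RAW264.7 cells, a mouse macrophage line grown in IMDM with fetal calf serum. The wild-type was compared with a C/EBPδ knock-out and with ΔTAD macrophages, in which CRISPR guides removed the transactivation domain of C/EBPδ while its DNA binding part was retained, and each of the 3 genotypes had 3 libraries. The series states that 3 independent clones were selected for sequencing, without saying whether the wild-type libraries are clones, so a trait of a clone and an effect of the genotype can be told apart only as far as 3 libraries allow. The p-values measure the spread between these libraries. Libraries held between 16113306 and 20981829 counts on genes. The ΔTAD library of replicate 1 stood apart, with a TMM scaling factor of 0.888 where the others lay between 0.999 and 1.027, and with 16.3% of its records aligned at more than 1 place, against 11.8% to 13.6% in the others. The transcript of Cebpd itself was not called lower: it stood at 6.13, 7.29 and 6.12 TMM-scaled CPM, that is counts scaled to a common library size, in wild-type, 5.22, 5.50 and 5.61 in knock-out and 4.90, 5.23 and 6.19 in ΔTAD libraries (log2 fold change −0.26 ± 0.12 SE, adjusted p = 0.085 for knock-out and −0.24 ± 0.12, adjusted p = 0.0931 for ΔTAD), which says nothing on the protein. The macrophage markers Csf1r, Cd68 and Lyz2 each had at least 6207 counts in every library, Mertk had at most 2, and the markers of T cells, B cells, fibroblasts and epithelial cells had at most 6. The summed level of 8 macrophage markers differed between genotypes (2560 to 2715 CPM in wild-type, 3525 to 3887 in knock-out and 5242 to 5954 in ΔTAD libraries). Lyz2 had the widest range among them, 18143 to 88391 counts per library. Against wild-type, 4 of the 7 tested markers were called higher and 1 lower in knock-out (22.8% and 22.4% of all genes tested). In ΔTAD macrophages 5 were called higher and 1 lower (26.3% and 23.4%). The median log2 fold changes were 0.14 and 0.24. The part of these markers in the results was not tested.

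A ribosome consists of a small subunit, which decodes the mRNA, and a large subunit, which joins the amino acids, and each core protein is needed at close to the same number of copies. Their mRNAs start with a run of pyrimidines, the terminal oligopyrimidine tract, through which mTORC1 and Larp1 control their translation together, while MYC proteins and RNA polymerase I set much of the output of the nucleolus, where ribosomal RNA is made and the subunits are assembled. Genes for ribosomal proteins are known for their many processed pseudogenes, which copy the mRNA elsewhere in the genome.

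Bases around the annotated start of a transcript differed in their runs of pyrimidines, and 4 genes that recur in the results are given. Each sequence runs from 15 bases before the RefSeq start to 15 bases from the start on, and capitals mark runs of at least 6 pyrimidines.
Rps18 (GRCm38.p6, chr17:33955651-33955680, minus strand): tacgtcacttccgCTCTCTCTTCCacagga
Rpl22l1 (GRCm38.p6, chr3:28805493-28805522, plus strand): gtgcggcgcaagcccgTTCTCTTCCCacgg
Rps7 (GRCm38.p6, chr12:28635939-28635968, minus strand): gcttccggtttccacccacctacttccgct
Rplp0 (GRCm38.p6, chr5:115559452-115559481, plus strand): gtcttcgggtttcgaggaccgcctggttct
The run is 11 bases long in Rps18 and 10 in Rpl22l1, and no run of 6 lies in the windows of Rps7 and Rplp0. The windows of Rpl36al and Rps28, not printed, had longest runs of 5 and 4. The starts used in these cells were not measured, so a window without a run does not show that the mRNA lacks the tract. RefSeq promoters were matched for 67 of the 87 genes. A run of at least 6 pyrimidines lay in these 30 bases in 37 of the 67 (55.2%), against 29.1% of all 27025 promoters. The letters CCGGAAG, searched on both strands over 300 bases, lay in 25 of them (37.3%, against 9.12% of all promoters). CCAAT, also on both strands, lay in 20 (29.9%, against 37.9%). TTGCNNAA, a form of the C/EBP motif, lay in the windows of 3 genes, Rpl10a, Rpl11 and Rpl23 (4.48%, against 10.8% of all promoters).

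The ribosomal protein genes took up 1.81% to 1.88% of the counts in wild-type libraries (mean 1.84% ± 0.0356 SD, n = 3). The share was 1.68% to 1.75% in knock-out libraries (1.71% ± 0.0351, n = 3) and 1.58% to 1.85% in ΔTAD libraries (1.74% ± 0.143, n = 3). Every knock-out library lay below every wild-type library, whereas the ΔTAD libraries spanned both. With the TMM-scaled library size as the denominator the means were 1.80% ± 0.0384, 1.68% ± 0.0345 and 1.81% ± 0.0321, and the ΔTAD libraries drew together at the level of the wild-type. In bulk libraries, fewer cells of a type and less RNA per cell cannot be told apart.

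**Figure D1:**
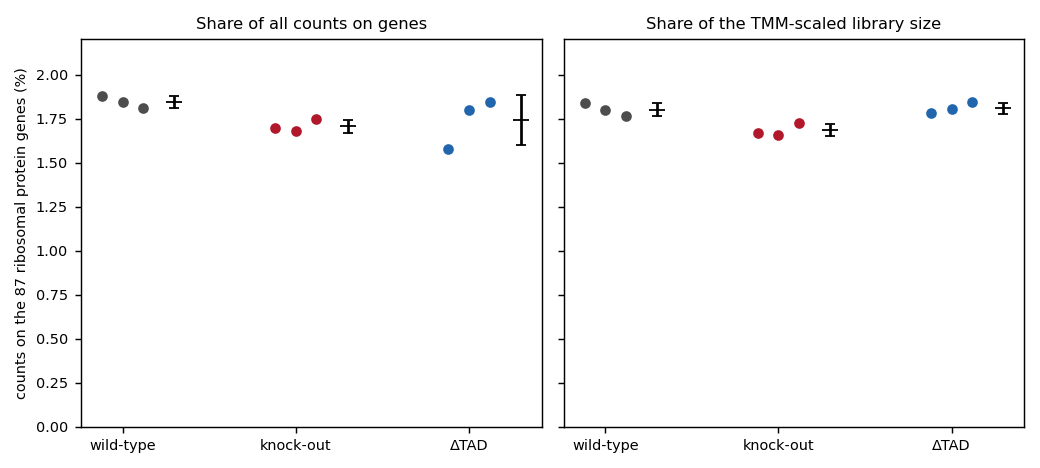
Percent of each library's counts that fell on the 87 ribosomal protein genes, by genotype, with all counts on genes (left) or the TMM-scaled library size (right) as the denominator. Points are libraries and bars are mean and SD (n = 3); knock-out libraries lie below wild-type libraries in both panels, and the low ΔTAD library at 1.58% moves up to the others after scaling.

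Levels between genes were compared per length, as TMM-scaled CPM per kb of the median annotated transcript. Over the 84 genes tested the median was 241, against 11.5 over the tested genes with a known length. Rpl8, a protein near the catalytic centre of the large subunit, was the highest at 1095, followed by Rpl4, which lines the exit tunnel, at 976. Next came the small subunit genes Rps3 (899), Rps14 (760) and Rps24 (696). In wild-type libraries Rpl8 reached 1119 ± 35.4 (SD, n = 3) and Rpl4 1033 ± 25.1, and Rps3 reached 907 ± 14.95. Rps14 was at 793 ± 32.4 and Rps24 at 688 ± 18.4 in the same libraries. At the lower end stood Rpl24 at 1.25 and the paralog Rpl3l, best known from heart and skeletal muscle, at 0.952. Most of the other genes lay between 100 and 1000, as the plot of levels per length shows. The order depended on the length used: per kb of all exons merged, Rpl8 (754) and Rpl4 (748) were followed by Rplp1 (646) and Rps15 (563), and Rps3 was at 191, Rps14 at 190 and Rps24 at 58.4.

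Some of these low levels fell on genes with many copies. Of the 50-base stretches of the Rpl24 transcript, the length of a read, 81.7% recurred exactly in transcripts of 10 other genes. For Rpl29 it was 78.5%, shared with 84 other genes, for Rpl21 46.5%, shared with 82, and for Rps2, which lies at the decoding site, 79.0%, shared with 71. Rpl24 had 10 to 20 counts per library, Rpl29 had 9 to 33, Rpl21 had 83 to 161 and Rps2 had 384 to 723. Rps27 shared more still (98.6%) and yet reached 470 per kb, so a high share did not always go with a low level. Across the 84 genes the Spearman correlation between the share and the level was −0.22, a description over genes of the same libraries. Over the 42 genes with the smaller share the median level was 305, and over the other 42 it was 215. Levels between ribosomal protein genes are uncertain for both reasons, whereas each gene is compared with itself across genotypes. That comparison also rests only on the reads left after those aligned at several places were set apart.

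**Figure D2:**
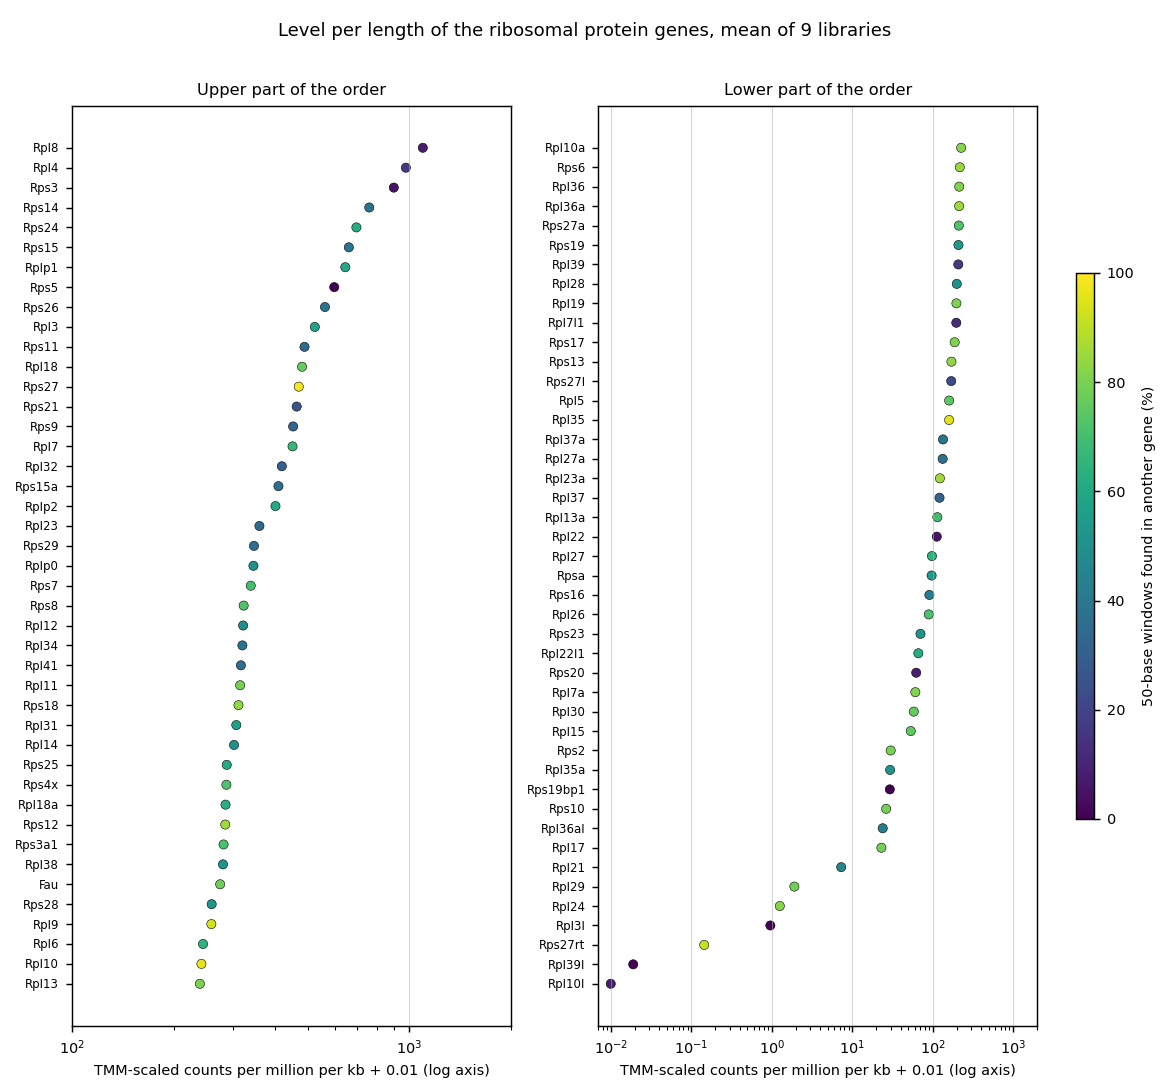
Level of each of the 87 genes on a log axis, as the mean over 9 libraries of TMM-scaled CPM per kb of transcript, in descending order over both panels, with the percent of 50-base stretches found in another gene as colour and a small offset added so that 0 can be drawn. Most genes lie between 100 and 1000, and Rpl21, Rpl29, Rpl24, Rpl3l and the 3 untested paralogs fall below 10.

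In knock-out against wild-type macrophages most ribosomal protein genes differed little. The median log2 fold change over the 84 genes was −0.08 (−0.0011 over all genes tested), and the SD between the genes was 0.22, against 0.47 over tested genes with a mean of at least 1000 counts. Of the 84 genes 28 were called lower, where 22.4% of all genes tested were called lower, and 7 were called higher, where 22.8% of all genes tested were. With scaling to library size alone the 28 became 15, where 2820 of all 14312 genes tested were called lower. A call with a change of 0.5 or more on the log2 scale, up or down, was seen in 6 of the 84 genes, against 19.0% of all genes. The 7 genes called higher all lie on chromosome 17, and the genes Rps7, Rpl36al and Rps29, among the 5 that fell most, lie on chromosome 12.

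**Figure D3:**
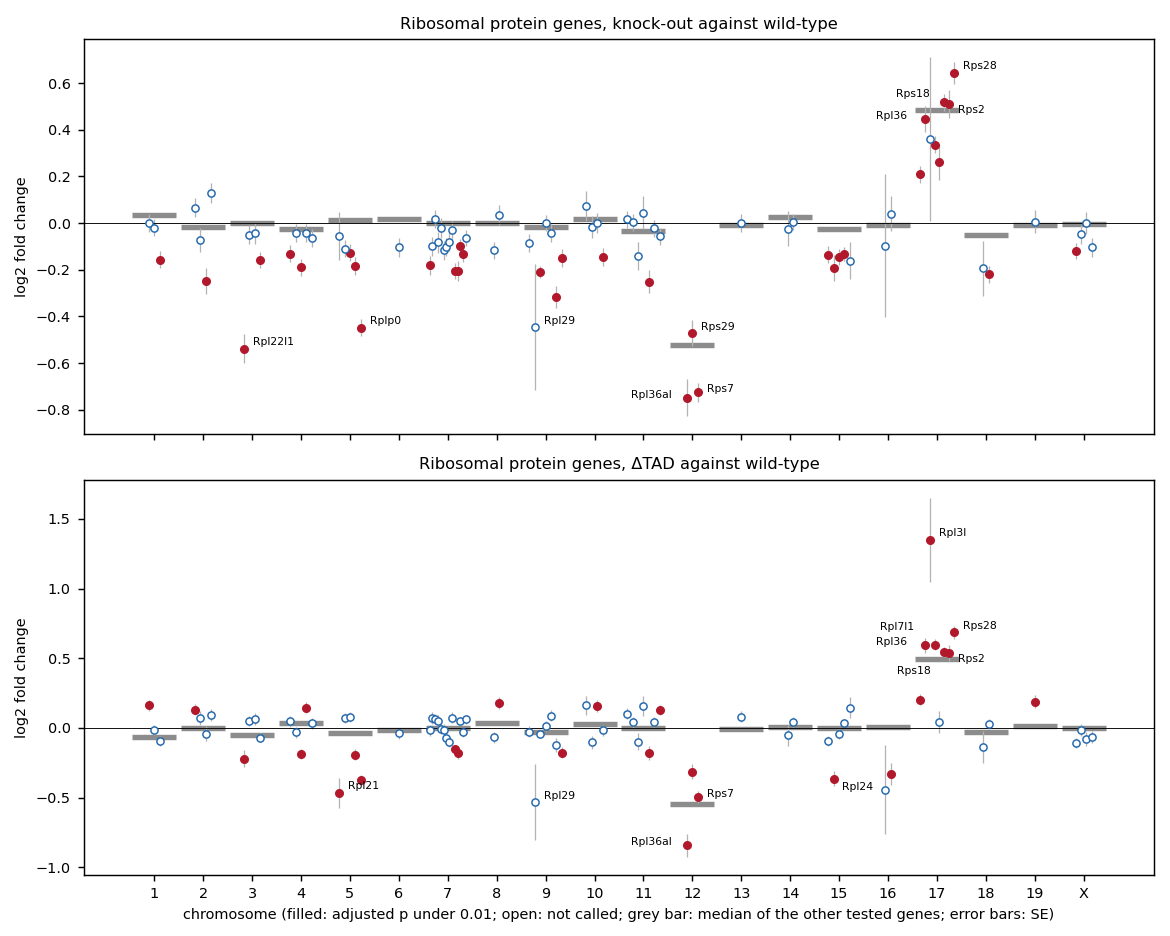
Log2 fold change against wild-type of the 84 ribosomal protein genes tested, by chromosome, in knock-out (top) and ΔTAD (bottom) macrophages. Filled points passed an adjusted p of 0.01, error bars are SE, and grey bars give the median of the other tested genes on each chromosome: points and bars are displaced downward together on chromosome 12 and upward on chromosome 17.

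The 3 tested genes on chromosome 12 were downregulated in both edited genotypes. Rps7, a small subunit protein that also binds the p53 ligase Mdm2, stood at 402, 385 and 382 TMM-scaled CPM in the wild-type libraries. It stood at 230, 222 and 254 in the knock-out libraries and at 281, 280 and 269 in the ΔTAD libraries. Both edited genotypes thus lay below every wild-type library, and knock-out lay below ΔTAD without overlap. The log2 fold change was −0.73 ± 0.04 (SE, adjusted p = 2.98e-13) for knock-out and −0.49 ± 0.04 (adjusted p = 3.13e-10) for ΔTAD, and −0.23 ± 0.04 (adjusted p = 1.02e-04) between knock-out and ΔTAD, the last not called with scaling to library size alone. Rps29, a zinc-binding protein of the small subunit, stood at 174, 150 and 156 in wild-type, 105.9, 121 and 120 in knock-out and 130, 119 and 138 in ΔTAD libraries. It fell by 0.47 on the log2 scale in knock-out (adjusted p = 8.21e-08) and by 0.31 in ΔTAD macrophages (adjusted p = 2.68e-05), and the edited genotypes overlapped. The paralog Rpl36al fell by 0.75 in knock-out (SE 0.08, adjusted p = 1.56e-08) and by 0.84 in ΔTAD macrophages (SE 0.08, adjusted p = 1.84e-09), from 23.6, 27.5 and 24.4 to 15.03, 14.6 and 15.2 and to 15.8, 12.9 and 13.8. A further paralog on chromosome 12, Rpl10l, a gene of the testis, had 0 counts in every library, which allows at most 0.143 to 0.186 CPM, a limit of 3 counts that covers counting error only.

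Other genes of chromosome 12 were lower as well. The 538 other tested genes there were shifted by −0.52 (median, log2) against wild-type in the knock-out and by −0.54 in the ΔTAD genotype, where 64.5% and 66.2% of them were called lower. Among the 20 tested genes nearest to Rpl36al the medians were −0.49 and −0.56, and for Rps7 they were −0.38 and −0.46. Whether a ribosomal protein gene differed from its neighbours was not tested.

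On chromosome 17 the shift was upward. Rps28, a protein of the small subunit, stood at 71.2, 69.4 and 73.1 CPM in wild-type, 106.6, 117 and 111 in knock-out and 112, 108 and 124 in ΔTAD libraries. No wild-type library overlapped with an edited library, and both edited genotypes overlapped with each other. The log2 fold change was 0.64 ± 0.05 (adjusted p = 1.06e-11) in knock-out and 0.69 ± 0.05 (adjusted p = 2.41e-12) in ΔTAD macrophages. Rps18, which sits in the head of the small subunit, rose from 134, 127 and 130 to 186, 187 and 188 in knock-out libraries (0.52 ± 0.04, adjusted p = 5.12e-12) and to 189, 186 and 196 in ΔTAD libraries (0.54 ± 0.04, adjusted p = 1.71e-12). Rps2 rose by 0.51 and 0.54, and the large subunit gene Rpl36 by 0.45 and 0.59. Rpl10a, part of the flexible L1 stalk through which spent tRNA leaves, rose less, by 0.21 and 0.20.

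The remaining genes on chromosome 17 were Rpl7l1, Rps10 and Rpl3l. Rpl7l1, a paralog of Rpl7 found on large subunits under assembly, stood at 205, 204 and 204 in wild-type, 261, 246 and 268 in knock-out and 313, 309 and 306 in ΔTAD libraries. The 3 genotypes did not overlap, and knock-out lay below ΔTAD (log2 fold change −0.26 ± 0.04, adjusted p = 3.49e-06, but not called with scaling to library size alone). Rps10, located where mRNA enters the ribosome, was higher in knock-out (0.26 ± 0.08, adjusted p = 0.00528) and at 0.04 ± 0.08 (adjusted p = 0.65) in ΔTAD macrophages. The knock-out call was lost with scaling to library size alone, with DESeq2, and without knock-out replicate 1 or 3 or wild-type replicate 2 or 3. The difference between the edited genotypes was not called (adjusted p = 0.0216). It was called with scaling to library size alone, with the offset for GC content and length and without knock-out replicate 2. Rpl3l had 8, 15 and 10 counts in wild-type, 15, 13 and 14 in knock-out and 16, 35 and 38 in ΔTAD libraries. It was called higher in ΔTAD macrophages (1.35 ± 0.30, adjusted p = 4.6e-04) and not in knock-out macrophages (0.36 ± 0.35, adjusted p = 0.409). The 738 other tested genes of chromosome 17 had medians of 0.48 and 0.50 in the same order, and 66.5% and 62.6% of them were called higher.

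**Figure D4:**
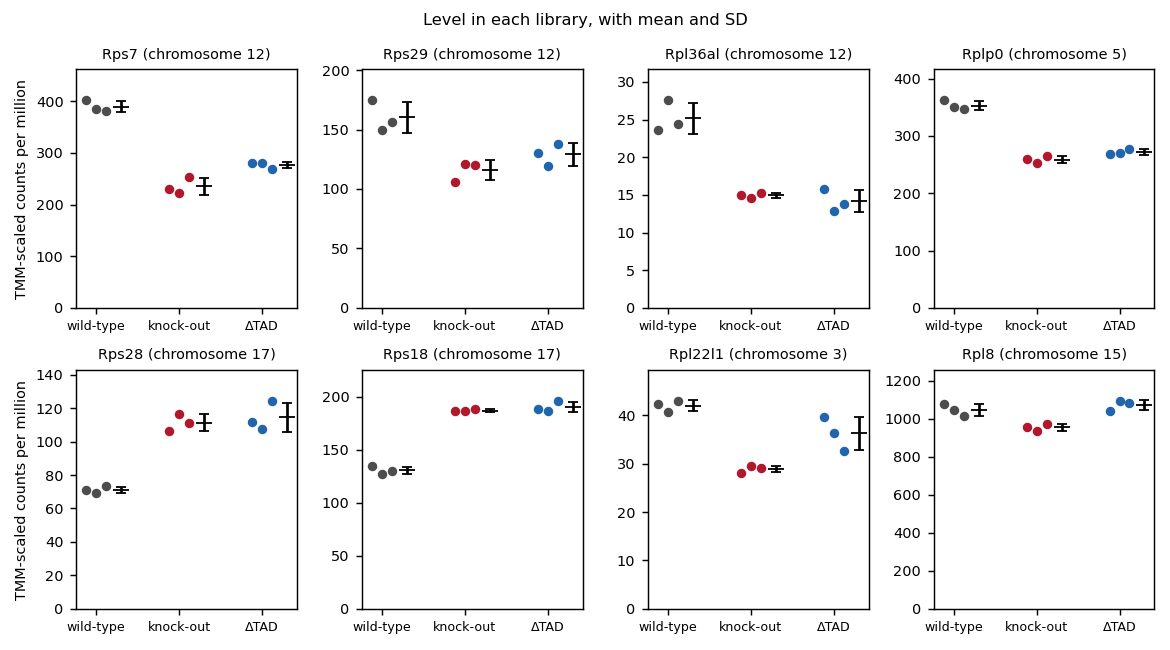
TMM-scaled CPM of 8 ribosomal protein genes in each of the 9 libraries, with mean and SD per genotype and axes that start at 0. Rps7, Rps29, Rpl36al and Rplp0 lie lower and Rps28 and Rps18 higher in both edited genotypes, and Rpl22l1 and Rpl8 are lowest in knock-out libraries.

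Outside chromosomes 12 and 17, edgeR's quasi-likelihood test called none of the 73 tested genes higher in knock-out macrophages (22.8% of all genes tested) and 25 lower (34.2%, against 22.4% of all genes tested), and the median was −0.10. At an unadjusted p under 0.05 it gave 1 higher and 35 lower, with no count over all genes at that threshold to set beside them. Limma-voom and DESeq2 called 0 higher. As all ribosomal protein genes called higher in knock-out macrophages lie on chromosome 17, the 0 follows from leaving that chromosome out. The shares of all genes tested, here and for ΔTAD macrophages, include chromosomes 12 and 17. In ΔTAD macrophages 7 were called higher (9.59%, against 26.3% of all genes tested) and 11 lower (15.1%, against 23.4%), and the median was −0.01. The 25 became 12 with scaling to library size alone, where 2820 of all 14312 genes tested were called lower. Without knock-out replicate 2 the 25 became 16, where 2841 of all 14738 genes tested were called lower. In ΔTAD macrophages the 7 became 0 with scaling to library size alone (2585 of 14312 over all genes). With the offset for GC content and length they became 3 (3753 of 14312), and the 11 became 17 (3339 of 14312). The 7 became 4 without wild-type replicate 2 (3486 of 14735), 3 without wild-type replicate 3 (3459 of 14673) and 2 without ΔTAD replicate 3 (3431 of 14618). Rps21 was the gene called higher in knock-out macrophages under some alternatives, among them the offset and leaving out wild-type replicate 1. Large and small subunit genes outside the pair of chromosomes had like medians, −0.09 and −0.07 in knock-out and −0.02 and 0.03 in ΔTAD macrophages.

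Among these genes, Rplp0 showed a fall that stood well beyond the spread. Rplp0 is the base of the P-stalk, the arm of the large subunit that receives elongation factors, and binds Rplp1 and Rplp2 as pairs. It stood at 362, 351 and 346 CPM in wild-type, 259, 252 and 264 in knock-out and 268, 270 and 277 in ΔTAD libraries, so the edited genotypes lay below the wild-type without overlap. The log2 fold change was −0.45 ± 0.04 (adjusted p = 7.32e-11) in knock-out and −0.38 ± 0.04 (adjusted p = 1.49e-09) in ΔTAD macrophages. Its partners were not called: Rplp1 had log2 fold changes of 0.0004 (95% interval −0.07 to 0.07) and 0.02 (−0.05 to 0.09), and Rplp2 had −0.02 (−0.10 to 0.06) and −0.0043 (−0.09 to 0.08). The 20 tested genes nearest to Rplp0 on chromosome 5 had medians of −0.13 and −0.03.

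Paralogs were set beside their parent genes. A read of 50 bases can tell the paralog from the parent where their coding sequences differ, as shown for both pairs below by the stretch of 60 bases with the most differences, with differing bases in capitals.
Rpl36a (GRCm38, chrX:134586516-134586575, plus strand): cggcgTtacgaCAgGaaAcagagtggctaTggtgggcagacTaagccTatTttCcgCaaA
Rpl36al (GRCm38, chr12:69182963-69183022, minus strand): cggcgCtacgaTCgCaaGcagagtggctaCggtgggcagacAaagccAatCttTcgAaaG
Rps27 (GRCm38, chr3:90213242-90213301, minus strand): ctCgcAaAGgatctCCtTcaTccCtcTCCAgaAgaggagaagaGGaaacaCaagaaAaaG
Rps27l (GRCm38, chr9:66946831-66946890, plus strand): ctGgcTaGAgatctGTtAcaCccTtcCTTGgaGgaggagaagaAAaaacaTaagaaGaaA
Rpl36a and Rpl36al differed at 39 of 318 coding bases, with at most 24 identical bases in a row, and Rps27 and Rps27l at 60 of 252, with at most 11. All 50-base reads within these coding sequences thus held at least 1 differing base. While Rpl36al was downregulated in both genotypes, Rpl36a was at −0.05 (95% interval −0.13 to 0.03) in knock-out and −0.01 (−0.09 to 0.07) in ΔTAD macrophages. Rps27l, known as a target of p53, stood at 92.4, 96.6 and 91.0 in wild-type and at 72.0, 70.5 and 82.2 in knock-out libraries. It fell by 0.32 on the log2 scale in knock-out macrophages (SE 0.05, adjusted p = 5.7e-06), and was at −0.12 ± 0.05 (adjusted p = 0.031) in ΔTAD macrophages, a value that is called with scaling to library size alone and without ΔTAD replicate 1. Rps27 was at −0.04 (−0.13 to 0.04) and 0.07 (−0.02 to 0.15).

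Rpl22l1, the paralog of the RNA-binding protein Rpl22, stood at 42.4, 40.7 and 42.9 in wild-type, 28.2, 29.4 and 29.2 in knock-out and 39.7, 36.4 and 32.6 in ΔTAD libraries. No library of an edited genotype reached the wild-type. It fell by 0.54 in knock-out (SE 0.06, adjusted p = 6.45e-08) and by 0.22 in ΔTAD macrophages (SE 0.06, adjusted p = 0.00265), and was lower in knock-out than in ΔTAD macrophages by −0.32 ± 0.06 (adjusted p = 2.58e-04). The ΔTAD value lost its call with the offset for GC content and length (−0.07, adjusted p = 0.3) and without ΔTAD replicate 3 (−0.15), wild-type replicate 1 (−0.21) or wild-type replicate 3 (−0.21). Rpl22 itself was at −0.04 (−0.12 to 0.03) and −0.03 (−0.11 to 0.04). Rpl39l and Rps27rt, the other paralogs, had at most 2 counts in any library and were not tested. Of the other parents, Rpl3 and Rpl7 fell by 0.14 and 0.16 in knock-out macrophages (adjusted p = 0.0023 and 4.85e-04), Rpl10 by 0.12 (adjusted p = 0.00672), and Rpl39 was at −0.0009 (−0.09 to 0.09). The calls of all 3 were lost with scaling to library size alone, that of Rpl3 also without knock-out replicate 2 or wild-type replicate 2, and that of Rpl10 also without replicate 1 or 2 of either genotype and with TMM factors computed without chromosomes 12 and 17. In ΔTAD macrophages Rpl3, Rpl7 and Rpl10 were at −0.09, −0.09 and −0.11 (adjusted p = 0.031, 0.0239 and 0.014), below every wild-type library but not called. With the offset and with DESeq2 all 3 were called lower there. Between knock-out and ΔTAD macrophages none of the 3 was called.

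The genes with the highest levels were among those with small falls in knock-out macrophages. Rpl8 stood at 1079, 1049 and 1013 CPM in wild-type, 958, 937 and 972 in knock-out and 1040, 1091 and 1085 in ΔTAD libraries. Knock-out libraries lay below the others and ΔTAD libraries overlapped with the wild-type. Rpl8 fell by 0.13 in knock-out (SE 0.03, adjusted p = 5.19e-04), Rpl4 by 0.21 (SE 0.03, adjusted p = 1.75e-07), Rps14 by 0.22 (SE 0.04, adjusted p = 1.46e-05) and Rps3 by 0.10 (SE 0.03, adjusted p = 0.00602), whereas Rps24 was at 0.01 ± 0.03. In ΔTAD macrophages none of these 5 was called, with values of 0.03 for Rpl8 (called at −0.09 with the offset for GC content and length), −0.05 for Rpl4, 0.03 for Rps14, 0.05 for Rps3 and 0.04 for Rps24. The calls of Rpl8 and Rps3 in knock-out macrophages were lost with scaling to library size alone, and Rps3 lost its call under 8 other alternatives, among them the offset, the replicate block and leaving out replicate 1 or 2 of either genotype. Rack1, a scaffold on the small subunit, fell by 0.14 in knock-out (SE 0.03, adjusted p = 1.34e-04) and was at 0.01 ± 0.03 in ΔTAD macrophages. Over the 2 tested genes outside the rule the medians were −0.15 and −0.27, and the gene other than Rack1 was not called against wild-type.

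In ΔTAD against wild-type macrophages 14 of the 84 genes were called higher, where 26.3% of all genes tested were, and 14 were called lower, where 23.4% of all genes tested were. The split was 9 to 20 with the offset for GC content and length (3753 to 3339 over all 14312 genes tested). With scaling to library size alone it was 6 to 19 (2585 to 3943 over all genes tested). The median was −0.0087 (−0.0033 over all genes). A call with a change of 0.5 or more was seen in 7 genes, against 22.5% of all genes. Large subunit genes outside the pair of chromosomes that fell included Rpl21 (−0.47 ± 0.11, adjusted p = 7e-04), Rpl30 (−0.36 ± 0.06, adjusted p = 3.59e-06) and Rpl35a (−0.33 ± 0.08, adjusted p = 8.77e-04). Their levels per kb were low, at 7.29, 58.2 and 29.6, against a median of 241 over the 84 genes. In the same order 46.5%, 76.4% and 52.3% of their 50-base stretches recurred in other genes (median 60.25%). The part of such copies in these falls was not tested. The 20 tested genes nearest to each had medians of 0.07, −0.29 and −0.03 in ΔTAD macrophages, in the same order. For Rpl30 the median of these neighbours was −0.15 in knock-out macrophages. Whether these genes differed from their neighbours was not tested. Rpl21 stood at 8.03, 8.45 and 9.69 CPM in wild-type and 5.81, 6.58 and 6.33 in ΔTAD libraries. Rpl35a stood at 14.9, 16.7 and 16.6 in wild-type and 12.7, 13.1 and 12.4 in ΔTAD libraries. In both genes the ΔTAD libraries lay below every wild-type library, and neither was called in knock-out macrophages (−0.06 ± 0.10 for Rpl21 and 0.04 ± 0.08 for Rpl35a). Rpl30 was also called lower in knock-out macrophages (−0.19 ± 0.05, adjusted p = 0.00429), a call lost under 8 alternatives, among them leaving out any knock-out library, wild-type replicate 1 or wild-type replicate 2. Both comparisons use the same wild-type libraries, so their values are not independent.

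Between the edited genotypes, 24 of the 84 genes were called lower in knock-out than in ΔTAD macrophages, where 19.1% of all genes tested were, and 2 were called higher, where 13.9% of all genes tested were. The median was −0.07 (−0.03 over all genes), and 1 gene was called with a change of 0.5 or more, against 9.31% of all genes. The 24 became 2 with scaling to library size alone, at a median of −0.0002, where 1024 of all 14312 genes tested were called lower. With the offset for GC content and length the 24 became 13 (2525 of 14312 over all genes). Without knock-out replicate 1 the 24 became 15 (2202 of 14589), and without knock-out replicate 2 they became 14 (2105 of 14738). Genes that were lower included Rps14 (−0.24 ± 0.04, adjusted p = 7.47e-06), Rpl7l1 and Rpl22l1 as given above, and Rps19bp1 (−0.31 ± 0.08, adjusted p = 0.00258). Rps14, Rpl7l1 and Rps19bp1 lost their calls with scaling to library size alone, and Rps19bp1 also with the offset and without knock-out replicate 1, ΔTAD replicate 2 or ΔTAD replicate 3. Rpl3l was lower by −0.99 ± 0.29 (adjusted p = 0.00691), a call lost without any of the knock-out libraries, without ΔTAD replicate 2 or 3, with the replicate block (adjusted p = 0.0109), with the offset, with limma-voom and with DESeq2. The genes that were higher were Rpl35a (0.37 ± 0.08, adjusted p = 4.76e-04) and Rpl21 (0.41 ± 0.11, adjusted p = 0.00378), the latter not without knock-out replicate 2 or ΔTAD replicate 3 and not with DESeq2.

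Genes that build the ribosome were also measured. Of 41 tested assembly factors, which process ribosomal RNA and put the subunits together, 37 were downregulated in the knock-out (22.4% of all genes tested) and 33 in the ΔTAD genotype (23.4% of all genes tested), with medians of −0.31 and −0.26. In the same order 1 and 3 factors were called higher, where 22.8% and 26.3% of all genes tested were, and these shares of all genes also apply to the lists that follow. Utp4, which acts early on the small subunit, fell by 0.83 in both, and Rrp9, a protein of box C/D snoRNPs, by 0.73 and 0.66. Riok2, a kinase of late small subunit assembly on chromosome 17, rose by 0.37 and 0.27, and Bysl, on the same chromosome, by 0.28 in ΔTAD macrophages. Over the other fits at the same threshold 36 to 37 and 27 to 33 factors were lower, and in ΔTAD macrophages 1 to 3 were higher.

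RNA polymerase I and its factors had 12 and 11 of 20 genes lower and 2 and 3 higher, with the subunit gene Twistnb, which lies on chromosome 12, at −0.82 and −0.86 and Polr1c, which lies on chromosome 17, at 0.32 and 0.52. Initiation factors had 20 and 14 of 24 genes lower, and 0 and 2 higher (0 to 3 in ΔTAD macrophages over the other fits). Among them Eif5 fell by 0.85 and 0.97 and Eif2s1 by 0.79 and 0.66, and both lie on chromosome 12. All 9 tested snoRNA host genes, spliced transcripts most of which carry a pyrimidine tract and hold snoRNAs in introns, were downregulated in ΔTAD macrophages (median −0.66) and 7 in knock-out macrophages (median −0.34). Against wild-type, edgeR, limma-voom and DESeq2 called 0 of these 9 and, in knock-out macrophages, 0 of the 24 initiation factors higher, and at an unadjusted p under 0.05 edgeR also gave 0. Gas5 fell by 0.81 in ΔTAD and by 0.31 in knock-out macrophages, and 6 of the 9 were called higher in knock-out than in ΔTAD macrophages, where 13.9% of all genes tested were.

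Of 19 genes for elongation factors and such mRNAs, 12 were lower and 1 higher in knock-out macrophages (7 to 15 lower over the other fits), and 8 lower and 2 higher in ΔTAD macrophages (1 to 4 higher over the other fits). The nucleolar protein gene Npm1 fell by 0.76 and 0.60, and Vim, an intermediate filament gene, rose by 0.58 and 0.98. Mitochondrial ribosomal protein genes, which serve a separate ribosome, had 37 of 79 lower and 6 higher in knock-out macrophages (median −0.18), and 11 lower and 18 higher in ΔTAD macrophages (median 0.04). Over the other fits 8 to 22 were higher and 8 to 15 lower there, with 8 higher and a median of −0.05 when scaled to library size alone. Mrps6 fell by 0.98 and 0.44, and Mrpl14, on chromosome 17, rose by 0.55 and 0.77. Of 8 chaperones dedicated to single ribosomal proteins, 5 were lower and 2 higher in knock-out macrophages, among them Grwd1 (−0.31) and Tsr2 (−0.30), which guard Rpl3 and Rps26, and 2 were lower and 2 higher in ΔTAD macrophages.

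**Figure D5:**
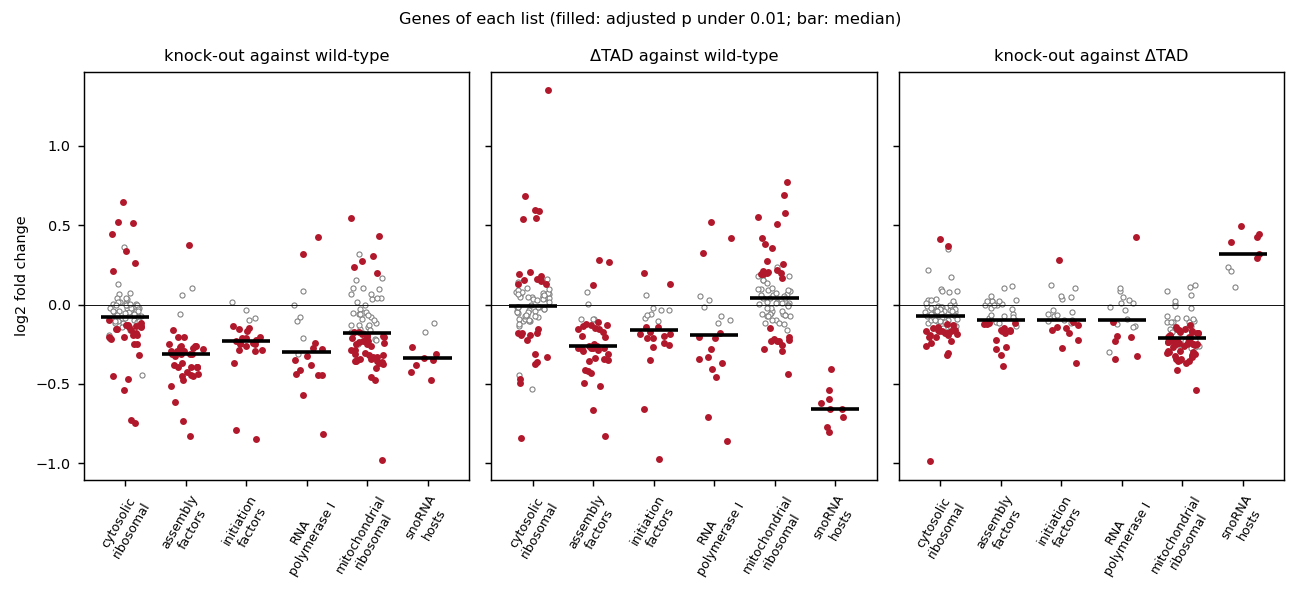
Log2 fold change of each tested gene of 6 lists in the 3 comparisons, with filled points for an adjusted p under 0.01 and a bar at the median. The ribosomal protein genes centre near 0 (medians −0.08 and −0.01 against wild-type), whereas assembly factors centre at −0.31 and −0.26 and snoRNA host genes at −0.34 and −0.66.

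Myc rose from 2.54 ± 0.397 to 26.9 ± 2.15 CPM in knock-out and 24.02 ± 1.26 in ΔTAD macrophages (SD, n = 3, log2 fold change 3.39 and 3.23, adjusted p = 3.13e-18 and 8.6e-18). Mycn, on chromosome 12, fell from 715 ± 25.1 to 355 ± 11.2 and 414 ± 7.01 (−1.01 and −0.79, adjusted p = 1.18e-17 and 1.1e-15). Their partner Max, also on chromosome 12, fell by 0.68 and 0.42, and the opposing factors Mxd1 (0.79 and 0.75) and Mnt (0.35 and 0.55) rose. Of the mTORC1 and S6 kinase axis, 7 of 19 genes were higher (36.8%, against 22.8% of all genes tested) and 5 lower (26.3%, against 22.4%) in knock-out macrophages. In ΔTAD macrophages 7 were higher (36.8%, against 26.3%) and 4 lower (21.1%, against 23.4%), so the lower calls were near the share of all genes. With scaling to library size alone, 5 were higher and 3 lower in knock-out macrophages (2760 and 2820 of all 14312 genes tested). In ΔTAD macrophages that scaling gave 5 higher and 5 lower (2585 and 3943 of 14312). Larp1, which binds the pyrimidine tract, fell by 0.43 and 0.41 (adjusted p = 4.89e-11 and 9.05e-11), and Tsc2, a brake on mTORC1 on chromosome 17, rose by 0.67 and 0.73. Mtor itself was at −0.02 ± 0.04 and −0.06 ± 0.04. Of 8 genes for nucleolar stress and p53 targets 3 were higher and 4 lower in knock-out macrophages, where Mdm2 rose by 1.12 and Ccng1 fell by 0.70, and 3 were higher and 2 lower in ΔTAD macrophages, where Mdm2 rose by 0.79 and Sesn2 fell by 0.52. With scaling to library size alone the 3 in knock-out macrophages became 2 and the 2 in ΔTAD macrophages became 4.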

How the data were processed

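Total RNA depleted of ribosomal RNA was sequenced as 50-base single reads. The authors trimmed reads with Trimmomatic, aligned them with Hisat2 to GRCm38 and counted them per Ensembl gene with HTSeq; the deposited values are raw counts. Per the labels the versions were Trimmomatic 0.36 and HISAT2 2.3.4.3, which the paper gives otherwise. Strand and overlap settings are not given in the sources used here. Reads aligned at several places are tallied apart, so genes with near-identical copies lose reads. Tally lines that name no gene were left out, and 46.7% to 53.2% of the records fell on genes.

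Symbols came from GENCODE release 21 for mouse (GRCm38). Genes were kept with edgeR's filterByExpr (minimum count 10, total 15), scaled by TMM and tested with edgeR's quasi-likelihood test (edgeR 4.0.16, R 4.3.3) in a model of 3 genotypes over 9 libraries. P-values were adjusted by Benjamini-Hochberg over 14312 genes, called under 0.01. Intervals are log2 fold change ± 1.96 SE. The fit was tested on simulated data for knock-out against wild-type (14083 genes): of genes changed by 0.5 on the log2 scale 78.0% were called, and of those changed by 0.25, 18.8%. The changed genes were drawn from genes of all levels, with a common dispersion. These percentages therefore do not give the power for the ribosomal protein genes, whose median level per kb was 241, against 11.5.

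Members and lists were chosen with earlier results of these data known. Named were the 5 highest and lowest genes by level, the 5 called genes with the highest and lowest fold changes per comparison, paralogs, their parents and the P-stalk, and from other lists at most 2 called genes in each direction, with the MYC and mTORC1 lists free. Rps10, Rpl10a, Rpl29 and Rps21, and Rpl11 and Rpl23 by their promoters, were added after values were seen. Alternatives covered DESeq2 1.42.0, limma-voom (limma 3.58.1), other scalings and filters, an offset for GC content and length, a block for the replicate number, a threshold of 0.05 and leaving out each library.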

Additional observations from a re-analysis of the deposited data

Results flagged for a closer look

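Counts on symbols that mark pseudogenes of ribosomal protein genes were used in no comparison of the report. The annotation lists 6 of the symbols with -ps as protein-coding, Rpl9-ps6 among them. Of 300 such symbols, 58 had more than 3 counts in each library, above the limit that a count of 0 allows, and 63 had 0 counts in each library. Rpl14-ps1 had 2137 to 3498 counts per library, Rpl9-ps6 had 654 to 1111 and Rpl10a-ps1 had 645 to 988. Together the 300 held 0.0547% to 0.0664% of the counts. Whether these reads came from these loci or from their parent genes was not tested.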

How the results depend on the processing

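Of 93 values of named genes (31 genes in 3 comparisons) 45 were called, and 28 of these kept their call and direction under all 21 alternatives. Of the 93, only Rpl8 in ΔTAD macrophages (0.03, not called) turned to a called value of the other sign, −0.086 with the offset for GC content and length. With that offset 9 genes were higher in ΔTAD macrophages (median −0.064), and 5 were higher and 13 lower in knock-out than in ΔTAD macrophages (median 0.0052). With scaling to library size alone, 15 were lower in knock-out (2820 of all 14312 genes tested) and 6 higher in ΔTAD macrophages (2585 of 14312, median −0.10). With that scaling 2 were lower in knock-out than in ΔTAD macrophages (1024 of 14312, median −0.0002). In that comparison DESeq2 called 1 higher, and a fit of only the 2 genotypes gave a median of −0.046. An adjusted p under 0.05 gave 4 higher and 37 lower there, with no count over all genes at that threshold to set beside them. The share in wild-type libraries was 1.80% of TMM-scaled sizes, and the median level per kb in wild-type libraries was 79.7 with all exons merged, against 234. The causes were not tested.

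Leaving out 1 library gave 6 to 8 genes higher and 19 to 31 lower in knock-out (median −0.11 to −0.05), 9 to 14 higher and 12 to 19 lower in ΔTAD (median −0.014 to 0.025), and 2 to 4 higher and 14 to 25 lower in knock-out than in ΔTAD macrophages (median −0.096 to −0.058). Over all genes, 14567 to 14781 tested, these fits gave 2912 to 3350 higher and 2807 to 3383 lower in knock-out. They gave 3409 to 3806 higher and 2984 to 3618 lower in ΔTAD macrophages. Between knock-out and ΔTAD macrophages they gave 1539 to 2293 higher and 2105 to 2761 lower. Among the ribosomal protein genes the low of 9 came without ΔTAD replicate 3 and the high of 4 without ΔTAD replicate 1. The 3 genes of chromosome 12 stayed called lower and 6 or 7 of those of chromosome 17 called higher against wild-type in the other fits at the same threshold.

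With the replicate number as a block the counts were 7 higher and 27 lower in knock-out, 13 and 14 in ΔTAD, and 2 and 21 between the edited genotypes. Over all 14312 genes tested they were 3164 and 3115, 3665 and 3235, and 1871 and 2594 in the same order. Libraries of the same number did not deviate together (r from −0.0717 to 0.02, against −0.0547 to 0.081 for different numbers), so no pairing by number was detected. With 3 libraries per genotype this cannot show whether libraries of the same number were prepared together.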
